A study of Mus musculus with 6 samples.

Results

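The neurotrophin genes *Bdnf* and *Ntf3* and the receptor genes *Ntrk2*, *Ntrk3*, *Ngfr* and *Sort1* were examined for acetylation of histone H4 at lysine 5 (H4K5ac) in the adult mouse hippocampus. These 6 genes were taken by name from the 37273 genes annotated outside the mitochondrial genome, of which 22367 are protein coding, and none was left out for low reads. Hippocampi came from male C57/BL6 mice of 6 months, either fear-conditioned with foot shocks in a context on consecutive days (FC) or exposed to the same context without a shock (CON), and were collected after the final memory test. For each group there was 1 library of chromatin pulled down with an H4K5ac antibody (H4K5ac-ChIP), 1 mock library with IgG (IgG-IP) and 1 library of unselected genomic DNA (input). Whether a library holds 1 mouse or a pool is not given in the labels, the spread between mice is unknown, and differences between FC and CON are differences between libraries, given without a test.

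Neurotrophins are secreted growth factors that support the survival of neurons and shape synapses, and BDNF released at active hippocampal synapses is needed for long-lasting potentiation and memory. They bind Trk receptor tyrosine kinases, with BDNF acting on TrkB (*Ntrk2*) and neurotrophin 3 on TrkC (*Ntrk3*), and all of them bind the low-affinity receptor encoded by *Ngfr*. Sortilin (*Sort1*) binds the uncleaved precursors, sorts pro-BDNF inside the cell and forms a receptor with the *Ngfr* product for pro-neurotrophins. H4K5ac is a mark of open chromatin that is read by bromodomain proteins.

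The 6 genes lie on 6 chromosomes of mm9. *Bdnf* (ENSMUSG00000048482.7) spans chr2:109514857-109567204 on the plus strand, and its 10 coding transcripts begin at 6 starts. *Ntf3* (ENSMUSG00000049107.7) lies at chr6:126051431-126116762 on the minus strand with 1 start. *Ntrk2* (ENSMUSG00000055254.7), on the plus strand of chr13:58907957-59235331, has 3 starts, and *Ntrk3* (ENSMUSG00000059146.6), on the minus strand of chr7:85337248-85723294, has 2 and lies 0.421 kb from its upstream neighbour *Gm9885*. These receptor genes are 327.4 and 386 kb long, and both are annotated with short coding transcripts that end well before the longest, as TrkB and TrkC occur with and without a kinase domain. *Ngfr* (ENSMUSG00000000120.6) is the shortest member, with 18.92 kb at chr11:95430132-95449049 on the minus strand and 1 start. *Sort1* (ENSMUSG00000068747.7) lies on the plus strand at chr3:108087009-108164429 with 3 starts, overlaps the annotated gene *Gm12523*, and follows *Psma5* at a gap of 4.116 kb.

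The 300 bases upstream of a start were read from the reference genome of the same build (NCBIM37) for all 16 starts. Those of *Bdnf* start 4, *Bdnf* start 6, *Ngfr* and *Sort1* start 1 are shown as examples of starts with a motif match or with a higher FC over CON ratio described further on. The capitals mark matches, on either strand, to TGACGTCA (the cAMP response element), TGACG (its shorter form, which every full element also contains), GGGCGG (the GC box) or TATAAA (the TATA box). Bases run 5′ to 3′ on the gene's strand and end next to the annotated start.

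Bdnf start 4, chr2:109532293-109532592, plus strand: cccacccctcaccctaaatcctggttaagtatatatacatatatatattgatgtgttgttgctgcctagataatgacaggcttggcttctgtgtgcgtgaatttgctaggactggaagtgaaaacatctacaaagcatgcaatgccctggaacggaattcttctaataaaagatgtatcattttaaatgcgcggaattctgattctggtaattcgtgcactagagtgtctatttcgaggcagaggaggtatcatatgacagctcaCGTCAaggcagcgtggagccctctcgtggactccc

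Bdnf start 6, chr2:109534326-109534625, plus strand: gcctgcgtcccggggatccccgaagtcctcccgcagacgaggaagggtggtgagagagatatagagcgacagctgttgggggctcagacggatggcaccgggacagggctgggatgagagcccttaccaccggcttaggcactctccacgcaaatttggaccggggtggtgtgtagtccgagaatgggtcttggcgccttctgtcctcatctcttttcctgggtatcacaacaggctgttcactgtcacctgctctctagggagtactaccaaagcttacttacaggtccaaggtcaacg

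Ngfr start 1, chr11:95449050-95449349, minus strand: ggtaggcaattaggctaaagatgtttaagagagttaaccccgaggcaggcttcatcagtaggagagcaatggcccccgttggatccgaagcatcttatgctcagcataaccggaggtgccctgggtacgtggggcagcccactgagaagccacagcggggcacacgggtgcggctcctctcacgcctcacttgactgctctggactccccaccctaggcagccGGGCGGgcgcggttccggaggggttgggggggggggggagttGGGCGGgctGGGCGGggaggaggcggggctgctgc

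Sort1 start 1, chr3:108086709-108087008, plus strand: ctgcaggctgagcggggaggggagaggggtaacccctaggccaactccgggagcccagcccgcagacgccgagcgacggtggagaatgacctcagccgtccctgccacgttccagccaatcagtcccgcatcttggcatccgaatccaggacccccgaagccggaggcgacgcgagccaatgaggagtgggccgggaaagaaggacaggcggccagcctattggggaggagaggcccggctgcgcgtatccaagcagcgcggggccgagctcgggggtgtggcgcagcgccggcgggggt

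None of the 16 windows held TGACGTCA, which occurred in 2.00% of the same windows at the first starts of 22361 protein-coding genes. The short form TGACG was found at 2 of the 16, among them *Bdnf* start 4, from 31 to 35 bases upstream, and 21.3% of all windows held it. GGGCGG was found at 5 of the 16 against 40.9% of all windows, with 4 matches at *Ntrk3* start 1 and 3 at *Ngfr*. TATAAA was found at 1 of the 16, *Bdnf* start 2, against 14.6%. Windows of the members ranged from 1 CpG dinucleotide at *Ntrk3* start 2 and *Sort1* start 3 to 30 at *Ntrk3* start 1, and the median over all protein-coding windows was 9. A match is a description of the letters and was not tested as a binding site.

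H4K5ac over the gene body was densest in *Sort1* and *Ntrk2* and sparsest in *Bdnf*. Read density (RPKM) is given as reads per kb and per 1000000 aligned reads of the library, with a 95% Poisson interval that covers counting error only. *Sort1*, the sorting receptor, had an H4K5ac-ChIP density of 1.23 RPKM (1.19 to 1.28) in FC and 1.16 (1.116 to 1.196) in CON, beside 0.363 and 0.397 in IgG-IP and 0.579 and 0.465 in input. Both H4K5ac-ChIP libraries stood above all 4 control libraries, at the 98.0th percentile of protein-coding genes in FC and the 98.4th in CON. *Ntrk2*, the TrkB gene, reached 0.785 RPKM (0.768 to 0.802) in FC and 0.862 (0.845 to 0.879) in CON, against 0.409 and 0.431 in IgG-IP and 0.564 and 0.450 in input, so that here too the H4K5ac-ChIP libraries were the highest. *Ntrk3*, the TrkC gene, had 0.667 and 0.671 RPKM, with 0.434 and 0.461 in IgG-IP and 0.520 and 0.471 in input. The order was the same at these 3 genes, with the mark above both kinds of control in either group.

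The ligand genes and *Ngfr* were less clearly separated from their controls. *Ngfr* had 0.537 RPKM in FC and 0.437 in CON for H4K5ac-ChIP, 0.273 and 0.375 for IgG-IP, and 0.630 and 0.381 for input. *Ntf3* had 0.422 and 0.444 RPKM for H4K5ac-ChIP, 0.421 and 0.387 for IgG-IP, and 0.636 and 0.470 for input. *Bdnf* was the lowest member in both groups, with 0.304 RPKM (0.278 to 0.332) in FC and 0.392 (0.364 to 0.421) in CON, and its IgG-IP densities of 0.424 and 0.476 were higher than these. Its input densities were 0.368 and 0.417 RPKM. *Bdnf* therefore ranked at the 26.4th and 34.7th percentile of protein-coding genes for H4K5ac-ChIP but at the 79.3rd and 89.7th for IgG-IP. In descending H4K5ac-ChIP density the order was *Sort1*, *Ntrk2*, *Ntrk3*, *Ngfr*, *Ntf3* and *Bdnf* in FC, and *Ntf3* and *Ngfr* changed places in CON, where their intervals of 0.417 to 0.472 and 0.388 to 0.489 overlapped. In bulk tissue, fewer cells carrying the mark and less of the mark per cell cannot be told apart.

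**Figure D1:**
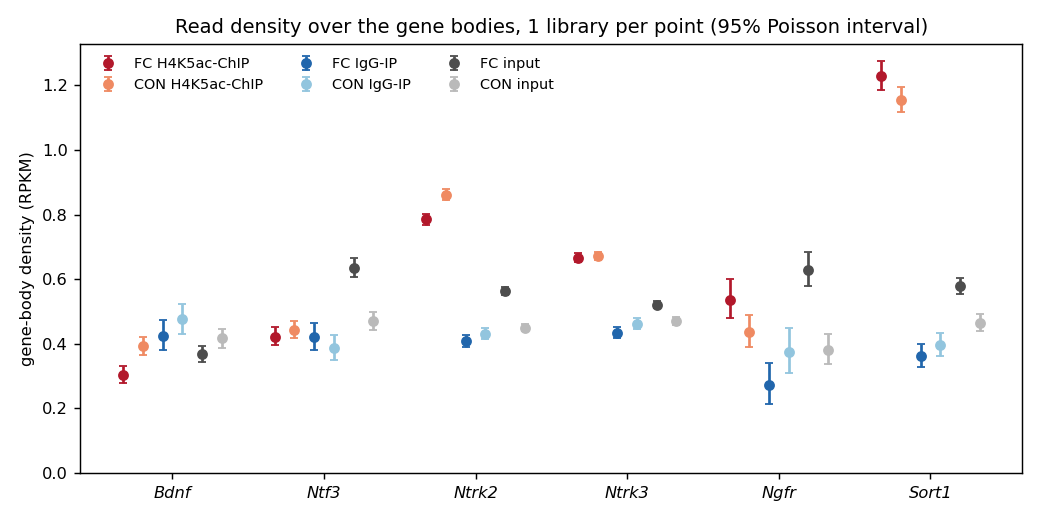
Gene-body read density in RPKM (vertical axis) for each of the 6 genes (horizontal axis) in the 6 libraries, 1 point per library with its 95% Poisson interval. *Sort1* sits at 1.23 and 1.16 RPKM for H4K5ac-ChIP and *Bdnf* at 0.304 and 0.392, below its own IgG-IP points.

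Over IgG-IP in the gene body, *Sort1* was the member with the most H4K5ac and *Bdnf* had a ratio below 1 in both groups. Ratios are densities scaled by total aligned reads, with exact binomial 95% intervals for counting error, and a gene was counted as past the fold from 2-fold. *Sort1* reached a log2 ratio of 1.76 (1.61 to 1.91) in FC and 1.54 (1.41 to 1.68) in CON. *Ntrk2* reached 0.94 (0.87 to 1.01) in FC and 1.00 (0.94 to 1.07) in CON, at the border of the threshold, and did not pass it in CON with 1 read per position and strand. Past 2-fold were thus 1 of the 6 members in FC, where 34.3% of all genes with at least 50 reads in the pair of libraries were, and 2 of the 6 in CON, where 25.8% were. *Ntrk3* had 0.62 and 0.54, and *Ntf3* 0.01 (-0.17 to 0.18) and 0.20 (0.03 to 0.37). *Ngfr* had 0.98 (0.61 to 1.36) in FC and 0.22 (-0.09 to 0.54) in CON. *Bdnf* had log2 ratios of -0.48 (-0.68 to -0.27) in FC and -0.28 (-0.46 to -0.10) in CON, where the median of all genes was 0.72 and 0.63. The ratio varied with base composition, and *Bdnf* has the lowest GC content of the members, 40.8%. Genes within 1 percentage point of it had a median of 0.28 in FC and 0.32 in CON, and those within 1 percentage point of *Ngfr*, at 53.6%, had 1.36 and 1.08. Against genes of like GC content *Bdnf* differed by -0.77 and -0.60, *Ntf3* by -0.80 and -0.47, *Ngfr* by -0.38 and -0.86, *Ntrk3* by 0.05 and 0.04, *Ntrk2* by 0.24 and 0.38, and *Sort1* by 1.04 and 0.91. On this scale *Ntf3* was the lowest member in FC and *Ngfr* in CON.

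Over input in the gene body, *Sort1* again had the highest ratios of the members, with 1.09 (1.01 to 1.17) in FC and 1.31 (1.22 to 1.41) in CON. *Ntrk2* had 0.48 and 0.94, and *Ntrk3* 0.36 and 0.51. *Ngfr* had -0.23 (-0.43 to -0.03) in FC and 0.20 (-0.05 to 0.44) in CON, *Ntf3* had -0.59 and -0.08, and *Bdnf* had -0.28 and -0.09. Here the ligand genes were at or below their input in both groups.

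In the promoter, taken as the 5 kb upstream of the first start, which reaches the neighbouring gene at *Sort1* and *Ntrk3*, *Sort1* was past 2-fold over IgG-IP in both groups and *Ntrk3* in CON. *Sort1* had 181 and 177 H4K5ac-ChIP reads against 26 and 30 IgG-IP reads, a log2 ratio of 1.68 (1.08 to 2.33) in FC and 1.44 (0.87 to 2.05) in CON. *Ntrk3* had 112 and 165 reads, FC before CON, against 32 and 24 in IgG-IP, which gave 0.69 (0.11 to 1.30) and 1.66 (1.03 to 2.34). Past 2-fold were 1 of the 6 members in FC and 2 in CON, beside 34.5% and 27.3% of all promoters. With the 2-kb promoter *Ntrk3* at 1.15 (58 and 12 reads) and *Ntf3* at 1.07 (41 and 9 reads) passed 2-fold in FC as well. Both lay below 1.39, the median of the 15535 genes with at least 50 reads in the pair of libraries at 2 kb. That median is itself past 2-fold. In so short a window genes dense in H4K5ac-ChIP reach the minimum of reads more easily, and at 5 kb the median was 0.65 over 30500 genes. Among the 15535 genes *Ntrk3* and *Ntf3* stood at percentiles 37.5 and 33.0. In CON *Ntrk3* had 2.44 (59 and 5 reads) and *Ntf3* -0.22 (28 and 15 reads) at 2 kb. The 5-kb promoters of *Bdnf*, *Ntf3*, *Ntrk2* and *Ngfr* held 49 to 75 H4K5ac-ChIP reads in FC and 77 to 103 in CON. For *Bdnf* the 5-kb log2 ratios over IgG-IP were -0.26 (-0.97 to 0.48) in FC and 0.43 (-0.13 to 1.03) in CON. At 2 kb they were 0.64 (-0.54 to 1.98) and 0.33 (-0.56 to 1.29), so the ratios below 1 of its gene body were not seen there, and all 4 intervals included 0. In *Ntrk2* the 5-kb promoter density was 0.462 RPKM in FC and 0.428 in CON, below that of its gene body. The CON log2 ratio over IgG-IP was -0.47 (-1.01 to 0.07) there. With the 2-kb promoter *Ntrk2* had 0.680 RPKM in FC and 0.779 in CON, and the CON ratio was 0.88 (0.01 to 1.835).

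FC over CON, the comparison of conditioned with context-exposed mice, was read by a fixed size of difference, at least 25% higher or at least 20% lower in FC, and 1 member passed it in the gene body, *Bdnf*, which was lower. *Bdnf* had 503 of the 31605738 H4K5ac-ChIP reads of FC and 738 of the 35962226 of CON, a log2 ratio of -0.37 (-0.53 to -0.20), at the 2.78th percentile of 22037 genes. The same ratio was -0.17 (-0.38 to 0.05) in IgG-IP and -0.18 (-0.32 to -0.04) in input. All 3 kinds of library had their lower density in FC, and the part of the input and IgG-IP differences in the H4K5ac-ChIP ratio was not tested. *Bdnf* fell short of the size of difference, at -0.32, relative to genes of like GC content, at -0.19 less the input ratio and at -0.20 less the IgG-IP ratio, the last comparison being added after seeing the data. Among all genes 3.8% were at least 20% lower in FC and 9.88% at least 25% higher, against 1 and 0 of the 6 members. In IgG-IP 12% were lower and 5.43% higher, and in input 10.4% were lower and 49.5% higher.

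The other members did not reach that size in the deposited counts. Less the input ratio, however, *Ntf3* with -0.51, *Ntrk2* with -0.46 and *Ngfr* with -0.43 were at least 20% lower, while 42.8% of all genes were, and *Ngfr* and *Sort1*, at -0.23, changed direction. *Ngfr* had 321 reads in FC and 297 in CON, a log2 ratio of 0.30 (0.07 to 0.53), while its input ratio was 0.72 (0.51 to 0.94) and its IgG-IP ratio -0.46 (-0.90 to -0.03). These point in different directions, and genes within 1 percentage point of its GC content of 53.6% had a median of 0.14 for H4K5ac-ChIP and 0.68 for input. *Ntrk2* had 8122 and 10145 reads and a log2 ratio of -0.13 (-0.18 to -0.09), and the interval did not reach 0. *Sort1* had 0.09 (0.02 to 0.16), from 3010 and 3218 reads. *Ntf3* had -0.07 (-0.20 to 0.06) and *Ntrk3* -0.01 (-0.05 to 0.03), with intervals that included 0. The median of the 6 members was -0.04, and that of all genes 0.04.

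**Figure D2:**
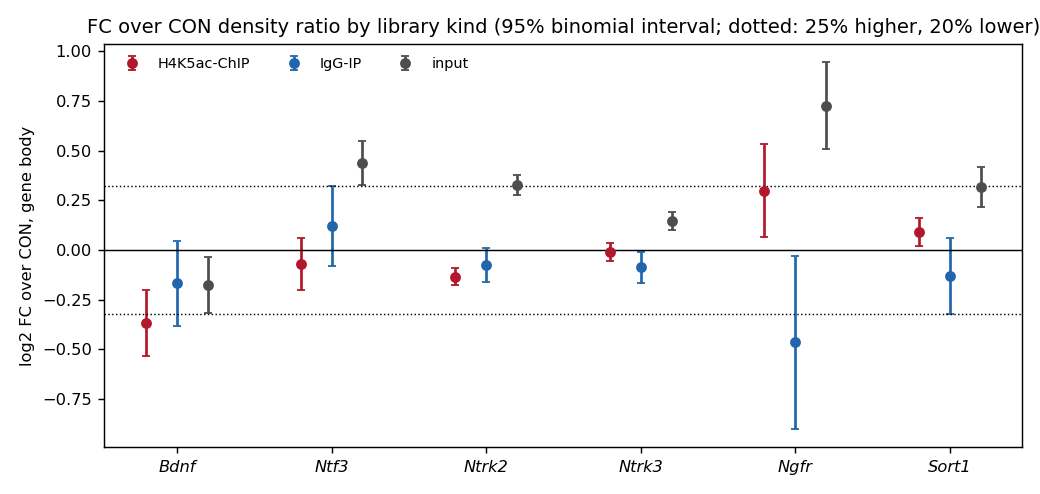
Log2 ratio of FC over CON gene-body density (vertical axis) for each gene in H4K5ac-ChIP, IgG-IP and input, with 95% binomial intervals and dotted lines at 25% higher and 20% lower. *Bdnf* lies at -0.37 in H4K5ac-ChIP, and the input ratios of the other 5 genes lie above 0.

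In the 5-kb promoter 2 of the 6 members passed that size, both lower in FC, where 10.9% of all promoters were lower and 15.2% higher. *Bdnf* had 49 reads in FC and 103 in CON, a log2 ratio of -0.89 (-1.41 to -0.38), at the 0.473rd percentile of all promoters. Its input promoter held 79 and 93 reads, a log2 ratio of -0.60 (-1.05 to -0.15), and its IgG-IP promoter 27 and 35. Within it, the 1-kb tile chr2:109510857-109511856, which starts 4 kb upstream, held 4 H4K5ac-ChIP reads in the FC library and 29 in that of CON. The tile was picked as the one with the most CON reads of the 58 tiles of *Bdnf*, so its ratio is a description. It held 4 and 25 reads when 1 read per position and strand was kept, 9 and 5 in IgG-IP and 10 and 21 in input. In the shorter promoter of 2 kb *Bdnf* had 27 and 41 H4K5ac-ChIP reads, -0.42 (-1.17 to 0.32), at percentile 9.38. That ratio still passed the size of difference, but its interval included 0. Input pointed the other way there, with 42 and 27 reads, 0.27 (-0.46 to 1.03), and IgG-IP held 8 and 15 reads. *Ntrk3* had a promoter log2 ratio of -0.37 (-0.73 to -0.02), with an input ratio of 1.01 (0.59 to 1.45) from 169 and 65 reads, but with the shorter promoter of 2 kb it had 58 and 59 reads and 0.16 (-0.39 to 0.71), which ends the call and turns the direction. For *Ntf3*, *Ntrk2*, *Ngfr* and *Sort1* the 5-kb promoter ratios were 0.13, 0.11, -0.04 and 0.22, each with an interval that included 0. With the 2-kb promoter *Ntf3* had 41 and 28 reads, 0.74 (0.01 to 1.48), at least 25% higher, as 24.3% of all genes were. Its input there held 51 and 21 reads, 0.92 (0.16 to 1.72).

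*Bdnf* is transcribed from several starts that answer differently to neuronal activity, among them the activity-dependent promoter IV, which is start 4 in the order along the gene. Windows of 1 kb either side of the 6 *Bdnf* starts held 20 to 43 reads in the H4K5ac-ChIP library of FC and 11 to 34 in that of CON. The upstream starts 1 to 3 had 21, 20 and 22 reads in FC and 27, 22 and 28 in CON, log2 ratios of -0.18, 0.05 and -0.16 with intervals that included 0. At start 4, whose sequence is shown above, 43 reads in FC and 34 in CON gave 0.53 (-0.16 to 1.22). Input held 52 and 32 reads there, and IgG-IP 18 and 10. The IgG-IP density at start 4 was thus higher in FC too, at 0.618 RPKM against 0.303 in CON, beside 0.680 and 0.4725 for H4K5ac-ChIP. Start 5 had 33 and 19 reads, a log2 ratio of 0.98 (0.13 to 1.88), with 60 and 19 in input and 7 and 9 in IgG-IP. Start 6 had 25 and 11 reads and the largest ratio of the 16 starts, 1.37 (0.30 to 2.54), with 50 and 13 reads in input and 9 and 8 in IgG-IP. The 3 downstream starts, 17.7, 18.9 and 19.8 kb into the gene with overlapping windows, thus had a higher H4K5ac-ChIP density in FC although the whole gene body had a lower one, and at starts 5 and 6 the input libraries differed by more than the H4K5ac-ChIP libraries, with log2 ratios of 1.30 (0.53 to 2.12) and 1.58 (0.68 to 2.58).

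Over the 16 starts of the 6 genes, 13 had at least 50 H4K5ac-ChIP reads in the 2 libraries together, and *Bdnf* starts 1, 2 and 6 did not. Of these 13, 6 were at least 25% higher in FC and 0 at least 20% lower, beside 32% and 10.7% of the first starts of all genes. The windows are not separate, since closely spaced starts of *Bdnf* and of *Ntrk2* have overlapping windows and share reads. In input 10 of 15 starts were higher and 0 lower, beside 54.8% and 10.6%. *Sort1* start 1 was the only one of the 3 *Sort1* starts past that size, with 60 reads in FC and 42 in CON, a log2 ratio of 0.70 (0.11 to 1.31), and its input held 25 and 16 reads. Its later starts, 61.7 and 71.4 kb into the gene, had 70 and 98 reads and 79 and 93 reads, with ratios of -0.30 and -0.05. *Ntrk2* start 2 had 45 and 34 reads, 0.59 (-0.08 to 1.28), and input of 35 and 25 reads. *Ntf3* had 39 and 30 reads at its start, 0.56 (-0.16 to 1.30), with 53 and 18 in input, and *Ngfr* 49 and 43, 0.37 (-0.25 to 1.00), with 61 and 34 in input. With 1 read per position and strand *Ngfr* had 34 and 38 reads there, 0.07. The windows hold few reads, and of the 16 starts *Sort1* start 1, *Bdnf* start 5 and *Bdnf* start 6 had H4K5ac-ChIP intervals above 0 in the deposited counts. With 1 read per position and strand *Bdnf* start 5 had 26 reads in FC and 18 in CON. Start 6 of *Bdnf* then had 20 and 11, so part of the reads at both starts repeated a position.

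**Figure D3:**
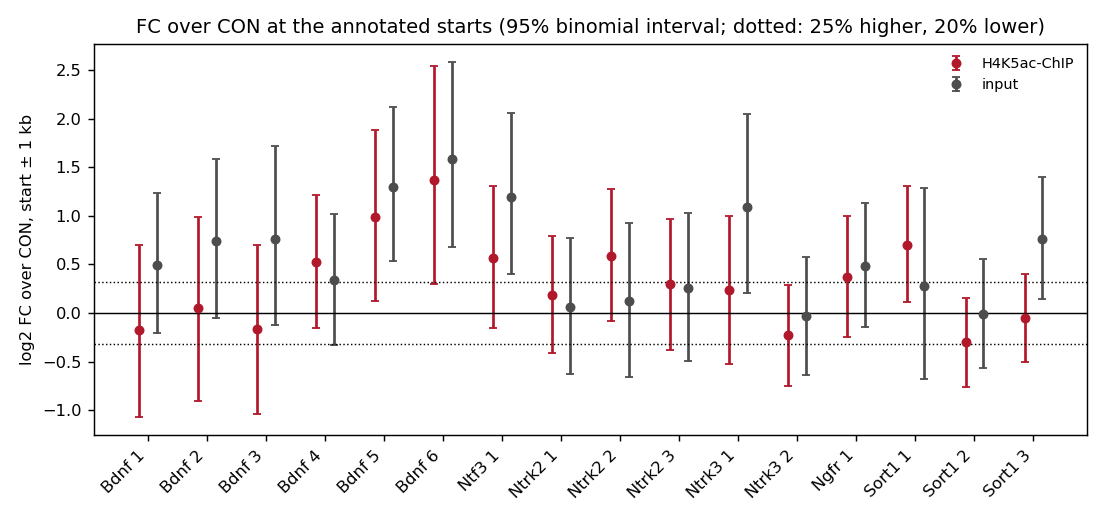
Log2 ratio of FC over CON reads within 1 kb of each of the 16 annotated starts (horizontal axis, gene and start number), for H4K5ac-ChIP and input with 95% binomial intervals. *Bdnf* start 6 is highest in both, at 1.37 and 1.58.

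Within *Ntrk2*, H4K5ac was denser in the part of the gene that only the longest receptor transcripts cover. The short coding transcripts end 81.9 kb and a further 48.6 kb into the gene. The first part had 0.702 RPKM in FC and 0.736 in CON, the middle part 0.754 and 0.820, and the last part, 196.9 kb, 0.828 and 0.925. Over IgG-IP the log2 ratio was 0.67 (0.53 to 0.82) and 0.75 (0.62 to 0.89) in the first part, and 1.05 (0.95 to 1.14) and 1.15 (1.06 to 1.23) in the last, intervals that do not overlap in either group. FC over CON was -0.07 (-0.16 to 0.02) in the first part, -0.12 (-0.23 to -0.01) in the middle and -0.16 (-0.21 to -0.11) in the last. The last part holds an intronic stack of CON reads described further on, 204 reads that fell to 37 with 1 read per position and strand. The ratios of the parts were not recomputed without repeated reads. The 45 kb ahead of the promoter had 0.301 and 0.325 RPKM, with log2 ratios of -0.47 and -0.31 over IgG-IP, and the 50 kb beyond the end still had 0.656 and 0.744.

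*Ntrk3* did not share this gradient. Its part shared with the short transcript, 276.1 kb, had 0.700 RPKM in FC and 0.701 in CON, and the part that only the longer transcript covers, 110.0 kb, had 0.584 and 0.597. Over IgG-IP the shared part stood at 0.64 (0.57 to 0.72) and 0.59 (0.52 to 0.66), and the rest at 0.54 (0.41 to 0.67) and 0.41 (0.30 to 0.53). The FC over CON ratios of both parts, -0.0032 (-0.05 to 0.05) and -0.03 (-0.12 to 0.05), included 0. Along *Ntrk3*, 10-kb tiles dipped to 0.339 and 0.364 RPKM at 150 kb and 0.335 and 0.345 at 300 kb from the first start, and the input of these tiles was low as well, at 0.276 and 0.282 and at 0.272 and 0.287.

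**Figure D4:**
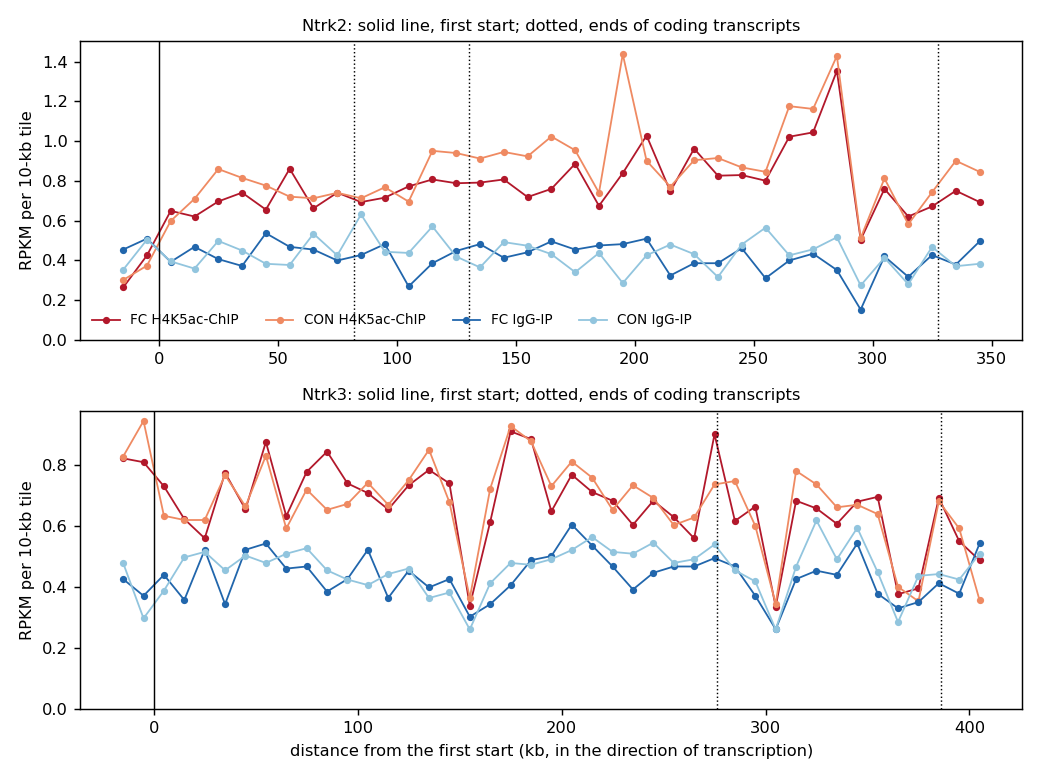
H4K5ac-ChIP and IgG-IP density in RPKM per 10-kb tile (vertical axes) along *Ntrk2* and *Ntrk3* by distance from the first start in kb (horizontal axes), with the ends of coding transcripts dotted. In *Ntrk2* the tile at 190 kb reaches 1.44 RPKM in CON and 0.839 in FC, and the tile at 280 kb 1.43 and 1.35.

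Tile by tile, *Ntrk2* was lower in FC in 25 of its 32 tiles of 10 kb, where 54% of all such tiles inside protein-coding genes were. The ratios ran from -0.78 to 0.26 with a median of -0.11, while the input median over the same tiles was 0.35. *Bdnf* was lower in 5 of 5 tiles, *Ntf3* in 4 of 6, *Ntrk3* in 21 of 38, *Sort1* in 1 of 7 and *Ngfr* in 0 of 1. The lowest *Ntrk2* ratio, at 190 kb, came from an intronic stack of reads in CON. The 1-kb tile chr13:59106957-59107956, picked as the one with the most CON reads, held 204 reads in the CON library and 27 in that of FC, beside 3 and 6 in IgG-IP and 15 and 34 in input. With 1 read per position and strand these became 37 and 20, and with a mapping quality score of at least 30 they became 38 and 25, so most of the CON reads in this tile repeated a position and most had a score under 30. Over the whole gene body the *Ntrk2* ratio was -0.11 under either count.

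**Figure D5:**
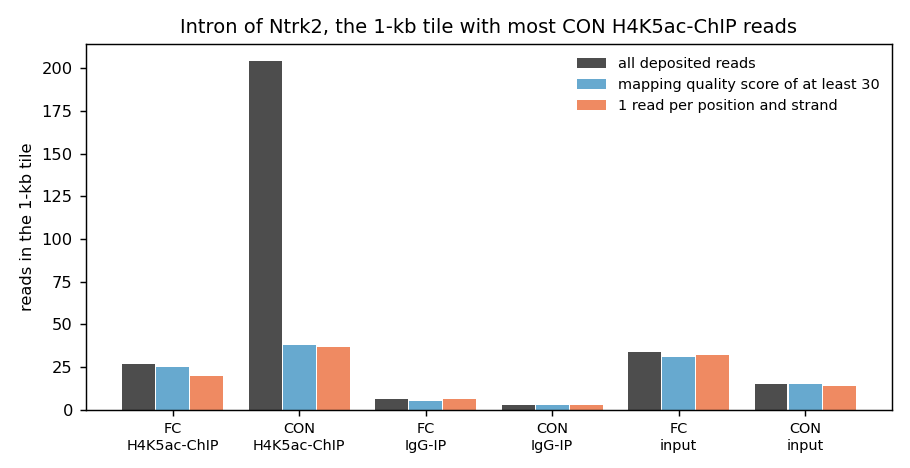
Reads (vertical axis) in the 1-kb intronic tile of *Ntrk2* with the most CON H4K5ac-ChIP reads, in each of the 6 libraries (horizontal axis), counted in 3 ways. The CON H4K5ac-ChIP bar drops from 204 to 38 or 37, and no other bar drops by more than 7 reads.

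A scan of the genome for local differences placed 1 region in the 6 genes and their promoters, in an intron of *Ntrk2* and higher in FC. The scan kept 1 read per position and strand and called windows of 300 bp at a one-sided Poisson p below 1e-05, which compares the libraries and not the conditions. It gave 1107 regions higher in FC and 793 lower, and 2.34% and 1.61% of all genes had at least 1 such region, against 1 and 0 of the 6 members. By length, the members held 1.04 regions higher in FC per Mb, which is 1 region in 0.957 Mb, and all genes 0.766. The *Ntrk2* region, chr13:59111801-59112300, lies 204.1 kb from the first start, past the ends of the short coding transcripts. With 1 read per position and strand it held 38 H4K5ac-ChIP reads from FC and 8 from CON, 6 and 2 in IgG-IP, and 18 and 8 in input. All deposited reads there numbered 38 and 9, 11 and 2, and 20 and 9. All 3 kinds of library were higher in FC, and the part of this in the call was not tested. The region is rich in runs of C and T, which make up 69.4% of its plus strand. Ranked by the larger of the C-and-T and A-and-G shares, it stood at the 99.3rd percentile of 6538 windows of this length along *Ntrk2*. Its longest run of C and T is 73 bases. The 300-bp window with the most FC reads is shown because it carries the call, and its own longest such run is in capitals.

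Ntrk2 intron, chr13:59111951-59112250, plus strand: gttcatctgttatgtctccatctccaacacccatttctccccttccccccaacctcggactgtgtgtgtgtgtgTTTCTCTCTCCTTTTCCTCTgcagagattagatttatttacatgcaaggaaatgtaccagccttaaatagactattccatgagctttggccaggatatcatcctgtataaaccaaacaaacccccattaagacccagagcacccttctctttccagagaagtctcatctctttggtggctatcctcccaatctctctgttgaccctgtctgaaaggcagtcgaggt

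*Ngfr* was the member whose exons and introns had the most different FC over CON ratios. In its exons FC gave 83 H4K5ac-ChIP reads and CON 49, a log2 ratio of 0.95 (0.42 to 1.49), and in its introns 245 and 259 reads, 0.11 (-0.15 to 0.36). In input the exons had 102 and 47 reads, a log2 ratio of 0.75 (0.24 to 1.29), and the introns 449 and 216, 0.69 (0.45 to 0.93). For IgG-IP the exons and introns of *Ngfr* differed in direction, whereas for H4K5ac-ChIP and input the ratios of both were above 0. Exon density there was 0.379 RPKM for FC beside 0.2815 for CON, from only 19 and 16 reads. Intron density was 0.2576 RPKM for FC beside 0.3997 for CON, from 58 and 102 reads. How much of the H4K5ac-ChIP gap is shared with IgG-IP was not tested. *Sort1* exons had 1.44 and 1.47 RPKM and its introns 1.24 and 1.15, with 0.712 and 0.600 against 0.583 and 0.464 in input. A read that crosses an exon edge counts in both classes, which raises the density of short exons more than that of introns. In FC 343 H4K5ac-ChIP reads of *Sort1* counted for exons and 2737 for introns, beside 3010 in the whole gene body. The part of such reads in the exon densities was not tested. Within *Sort1*, cut into 4 equal stretches of 19.4 kb, the first was the densest, with 1.40 RPKM in FC and 1.24 in CON.

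Of the pathway around the members, 37 of 38 listed genes had enough reads, and 5 were at least 25% higher and 1 at least 20% lower in FC, beside 9.88% and 3.8% of all genes, with a median log2 ratio of 0.05 beside 0.04 for all genes. Among the other ligands, *Ntf5*, which binds TrkB, had 36 reads in FC and 53 in CON, -0.37 (-1.02 to 0.27). The sorting receptors related to sortilin lay close to 0, with 0.06 for *Sorl1*, 0.07 for *Sorcs1*, 0.07 for *Sorcs2* and 0.05 for *Sorcs3*. Over IgG-IP they split, with 1.06 and 0.95 for *Sorl1* and 1.23 and 1.00 for *Sorcs2*, and 0.03 and 0.07 for *Sorcs1* and 0.22 and 0.15 for *Sorcs3*.

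The signalling genes of the list with the highest FC over CON ratios were *Ngfrap1*, with 0.77 from only 18 and 12 reads, *Nradd*, a gene related to *Ngfr*, with 0.44 (0.09 to 0.79), and *Mapk3*, the ERK1 gene, with 0.41 (0.15 to 0.67). *Maged1* with 0.38 and *Sh2b1* with 0.35 were also at least 25% higher and were named after their values were seen. Input ratios of these genes ranged from 0.41 for *Maged1* to 1.14 for *Ngfrap1*. The lowest were *Pcsk1*, a prohormone convertase, with -0.21 (-0.37 to -0.04), *Creb1*, the gene of the transcription factor CREB, with -0.16 (-0.27 to -0.06), and *Sos1*, an activator of Ras, with -0.14 (-0.23 to -0.05). None of these 3 was 20% lower, and their input ratios of -0.34, -0.29 and -0.04 were below 0 too.

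The genes most like each member, by Euclidean distance of log2 RPKM over the 6 libraries among 12995 protein-coding genes with at least 50 reads in every library, were *Unc5d* and *Rab27b* for *Bdnf*, at distances of 0.15 and 0.20. For *Ntf3* they were *Ucma* and *Acan* (0.14 and 0.16), for *Ntrk2* *Arhgap26* and *Arhgap31* (0.071 and 0.090), and for *Ntrk3* *Ncapd3* and *Entpd1* (0.10 and 0.11). *Ngfr* was closest to *Epha2* and *Crtap* (0.19 and 0.20), and *Sort1* to *Sp2* and *Mprip* (0.086 and 0.11). *Unc5d* shared the order seen at *Bdnf*, with 0.312 and 0.381 RPKM in H4K5ac-ChIP below 0.455 and 0.452 in IgG-IP.

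The libraries held 14549689 to 45673239 aligned reads, the IgG-IP libraries being the smallest. Of marker genes checked for the labelled tissue, 5 of 9 neuronal genes were at least 2-fold over IgG-IP in FC and 2 of 9 in CON, against 3 and 2 of 4 for oligodendrocytes, 0 and 1 of 5 for astrocytes, and 1 and 1 of 9 for genes of liver, muscle, skin and pancreas, beside 34.3% and 25.8% of all genes. Summed over the neuronal list, H4K5ac-ChIP density came to 5.76 RPKM for FC against 5.33 for CON, over the oligodendrocyte list to 3.07 against 2.72, over the astrocyte list to 3.30 against 3.38, and over the genes of other organs to 3.53 against 3.24. Input was higher in FC over all 4 lists, with 4.88 against 3.75 for neurons, 2.02 against 1.53 for oligodendrocytes, 2.91 against 2.31 for astrocytes and 4.96 against 3.79 for other organs.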

How the data were processed

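ChIP-seq of hippocampal chromatin gave 6 libraries, and the groups FC and CON were taken from the labels. The authors aligned SOLiD reads to mm9 with Bioscope and deposited 1 line per mapped read, with coordinates, orientation and a mapping quality score between 4 and 100. The deposited reads are not normalized, and a stretch read many times raises the density. The submitters' processing notes also name mm9.

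Reads overlapping a region by at least 1 bp were counted with Python 3.11.15 and NumPy 2.4.6, and RPKM was computed from total aligned reads. Genes came from the GENCODE annotation of mm9, from first TSS to last TTS, and starts within 500 bp were merged. Intervals (SciPy 1.17.1) are exact Poisson and binomial and cover counting error only, since repeated reads are not independent molecules. Calls are by fold, over genes with at least 50 reads in the 2 libraries together. The scan took its genome size, 300-bp width and Poisson p of 1e-05 from the MACS settings of the study but is not MACS, and its regions need not be those of the study. Reads were shifted by 75 bp, a choice made here, with the expected count taken as the largest of the genome rate and the local rates over 1, 5 and 10 kb, and was tested on simulated data. Figures used matplotlib 3.10.9. Named genes were the 6 members, the other ligands and receptors, the 3 highest and 3 lowest of the other pathway genes, and the 2 genes most like each member. The members and lists were chosen with earlier results of these data known. Alternatives kept 1 read per position and strand (all deposited reads in the scan) or reads with a score of at least 30, or used input as control, centring on all genes or on genes of like GC content, subtraction of the input ratio, promoters of 5 and 2 kb, protein-coding genes only, no minimum number of reads, start windows of 0.5 kb either side, a Poisson p below 1e-07 and shifts of 50 and 100 bp. Subtraction of the IgG-IP ratio was added after seeing the data. Some items of the lists and windows are not reported here by name, although the counts include them.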

Additional observations from a re-analysis of the deposited data

Results flagged for a closer look

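At the 5-kb promoter of *Ntrk3* the log2 ratio of H4K5ac-ChIP over input pointed in opposite directions in the groups, with -0.062 (-0.42 to 0.29) in FC and 1.33 (0.90 to 1.76) in CON. It was singled out because the signs differ and the counting intervals do not overlap, and the difference was not tested, as each group has 1 library. The reads were 112 in H4K5ac-ChIP and 169 in input for FC, and 165 and 65 for CON, so the input libraries differed more than the H4K5ac-ChIP libraries. With the 2-kb promoter the ratios were 0.58 (0.03 to 1.14) in FC and 1.22 (0.52 to 1.96) in CON, of the same sign and with overlapping intervals.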

How the results depend on the processing

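Of 162 values recomputed, 88 stayed within the counting interval or within 1.5 times the count, and 73 moved. In 1 further case a value past its fold changed sign, *Ntrk2* over IgG-IP in CON, with -0.47 in the 5-kb promoter against 1.00 in the gene body. In the 2-kb promoter it was 0.88. Values not past a fold also changed sign, such as *Ngfr* in FC, 0.98 over IgG-IP and -0.23 over input. Members at least 2-fold over IgG-IP in CON went from 2 to 1 with 1 read per position and strand, a score of at least 30 or input as control, and to 0 when centred on all genes. Members at least 25% higher in FC went from 0 to 1 with the 2-kb promoter (*Ntf3*) or less the IgG-IP ratio (*Ngfr*). Members at least 20% lower went from 1 (*Bdnf*) to 2 with the 5-kb promoter (*Bdnf*, *Ntrk3*), to 3 others less the input ratio (*Ntf3*, *Ntrk2*, *Ngfr*, and not *Bdnf*), and to 0 relative to genes of like GC content or less the IgG-IP ratio. Of all genes, the percentage higher went from 9.88 to 15.2 and 24.3 with the 5-kb and 2-kb promoters and 19.3 with no minimum number of reads, and the percentage lower from 3.8 to 10.9, 14.0 and 12.6, and to 42.8 less the input ratio. Starts higher in FC went from 6 to 0 and lower from 0 to 1 with windows of 0.5 kb, where only 3 starts kept 50 reads. Scan regions in the members went from 1 to 5 higher and from 0 to 4 lower when all deposited reads were kept. The share of all genes with a region was not recorded under that setting, so these counts have no background beside them. The FC over CON ratio of *Bdnf* was below 0 under all 8 alternatives, between -0.89 and -0.19, while *Ngfr* kept its direction under 5 of 8. No paired analysis was possible because each group has 1 library per antibody, and for the same reason no replicate could be left out. Depth limits the start windows, with 11 to 98 reads in each H4K5ac-ChIP library.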
